A study of Mus musculus with 18 samples.

Results

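The 10 genes described here encode proteins of dense-core granules, the regulated secretory vesicles of endocrine and neuroendocrine cells, and they were followed library by library in RNA-seq and ATAC-seq libraries of mouse small cell lung cancer. They are the granins Chga, Chgb, Scg2 and Scg3, the cargo genes Vgf and Resp18, the prohormone convertases Pcsk1 and Pcsk2, the convertase chaperone Scg5 and the carboxypeptidase Cpe. The list was set by gene name, with earlier results of these data known. All 10 were found among the 46078 genes counted and passed the filter on low counts. Of 111664 ATAC-seq peaks, 36 overlapped the span from 5000 bp upstream of a member to its end, and all 36 passed the filter.

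Granins aggregate in the trans-Golgi network and take part in the budding of granules, in which peptide hormones are stored until a calcium signal releases them. Inside the granule Pcsk1 and Pcsk2 cut prohormones after pairs of basic residues, and Cpe then trims the exposed basic residues. Chromogranin A, the product of Chga, is a standard marker of neuroendocrine tumors, a class that includes small cell lung cancer.

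Tumors of 3 genotypes were compared, with 3 libraries of each per assay from independent animals. TKO mice carried conditional alleles of Rb1, p53 and a further retinoblastoma family gene, given as Rbl1 in the labels and as Rbl2 in part of the study's text. The group labelled TKO;Carm1, called Carm1 mutant here, carried in addition a conditional allele of Carm1, which encodes an arginine methyltransferase. The group labelled TKO;NfibR388K, called R388K mutant here, carried a knock-in of the transcription factor NFIB, with lysine in place of the arginine that is the target of CARM1. Every genotype, the TKO controls included, was given adenoviral Cre by the airway at 8 weeks of age, and cells were isolated from the lungs 28 weeks later. The virus delivered Cre to whichever lung cells took it up, whereas a knock-in is present in all cells of the animal. The study's methods describe sorting on a tdTomato reporter that Cre activates, its results speak of the same tumor biopsies for both assays, and its section on ATAC-seq calls the sorted material cell lines. Which RNA-seq and ATAC-seq libraries share a tumor was not given in the sources used here, so a shared replicate number is not read as a shared tumor.

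RNA-seq libraries held 15848866 to 20915057 counts in genes and ATAC-seq libraries 26917178 to 47653979 counts in peaks. Levels are given as CPM, counts scaled to a common library size with TMM factors. A count of 3 in a library corresponds to 0.131 to 0.203 CPM in RNA-seq and 0.0576 to 0.127 CPM in ATAC-seq, limits that cover counting error only. Carm1 itself was read at 97.7, 103 and 44.5 CPM in TKO, 63.4, 79.1 and 50.8 CPM in Carm1 mutant and 100.4, 104 and 102 CPM in R388K mutant tumors, and its log2 fold change in Carm1 mutant tumors was -0.34 ± 0.31 SE (adjusted p = 0.41, edgeR quasi-likelihood test). Gene counts do not show whether the conditional exons were lost, so this value is no check of the labels. Nfib was read at 420.2, 579.9 and 571 CPM in TKO, 74.5, 216 and 87.2 CPM in Carm1 mutant and 105, 83.3 and 91.4 CPM in R388K mutant tumors and was lower in both mutants. Outside annotated genes lay 9.99 to 12.2% of the RNA-seq reads of TKO and 3.65 to 5.17% in the 6 mutant libraries. Replicate 3 of the Carm1 mutant tumors stood apart from the other 5 mutant RNA-seq libraries in the granule genes, and the members' results that rest on it are given with and without it.

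On GRCm38, the granins lie apart from each other in the genome, with Chga (ENSMUSG00000021194) at chr12:102554969-102565028 (plus strand), Chgb (ENSMUSG00000027350) at chr2:132781278-132795079 (plus strand), Scg2 (ENSMUSG00000050711) at chr1:79434669-79440120 (minus strand) and Scg3 (ENSMUSG00000032181) at chr9:75643189-75684056 (minus strand). The cargo genes are Vgf (ENSMUSG00000037428) at chr5:137026392-137033351 (plus strand) and Resp18 (ENSMUSG00000033061) at chr1:75272199-75278415 (minus strand). The processing genes are Pcsk1 (ENSMUSG00000021587) at chr13:75089826-75134861 (plus strand), Pcsk2 (ENSMUSG00000027419) at chr2:143546156-143816285 (plus strand), Scg5 (ENSMUSG00000023236) at chr2:113776362-113829121 (minus strand) and Cpe (ENSMUSG00000037852) at chr8:64592542-64693054 (minus strand).

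RefSeq promoters, 250 bases before and 50 after the start of transcription on GRCm38.p6, were found for 8 of the 10 members, all but Cpe and Vgf. The cAMP response element TGACGTCA, the palindrome bound by CREB family factors, was found in 3 of the 8 (Chgb, Scg2 and Pcsk1) against 1.79% of all 32817 promoters of this length. Its first letters, TGACG, were found on either strand in 7 of 8 against 20.8%, and since the palindrome holds TGACG on both strands these counts overlap. The promoters of Chga, Chgb, Scg2 and Pcsk1 are shown, the last 3 because they hold the palindrome and Chga as the marker gene with TGACG alone. The letters begin at base -44 in Chga, -72 in Chgb, -68 in Scg2 and -78 in Pcsk1. These bases count from the RefSeq start, which can differ from the gene start given above and used for the peaks. The whole Chgb promoter lies inside the gene as given above. The promoters cover chr12:102554691-102554990 (plus strand), chr2:132781392-132781691 (plus strand), chr1:79439977-79440276 (minus strand) and chr13:75089607-75089906 (plus strand), and are read 5′ to 3′ on the strand of the gene with TGACG and its reverse complement in capitals.
Chga promoter: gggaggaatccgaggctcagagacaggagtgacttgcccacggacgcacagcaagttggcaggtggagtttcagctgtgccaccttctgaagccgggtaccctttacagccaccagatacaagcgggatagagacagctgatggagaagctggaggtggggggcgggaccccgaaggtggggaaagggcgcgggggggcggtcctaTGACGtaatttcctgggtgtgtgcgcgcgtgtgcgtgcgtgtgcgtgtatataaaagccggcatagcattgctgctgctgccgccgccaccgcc
Chgb promoter: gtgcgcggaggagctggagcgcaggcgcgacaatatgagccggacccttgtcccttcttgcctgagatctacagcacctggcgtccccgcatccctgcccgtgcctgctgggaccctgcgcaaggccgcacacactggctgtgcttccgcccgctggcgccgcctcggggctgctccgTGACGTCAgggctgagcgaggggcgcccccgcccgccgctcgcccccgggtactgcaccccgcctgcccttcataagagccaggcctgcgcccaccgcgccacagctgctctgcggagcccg
Scg2 promoter: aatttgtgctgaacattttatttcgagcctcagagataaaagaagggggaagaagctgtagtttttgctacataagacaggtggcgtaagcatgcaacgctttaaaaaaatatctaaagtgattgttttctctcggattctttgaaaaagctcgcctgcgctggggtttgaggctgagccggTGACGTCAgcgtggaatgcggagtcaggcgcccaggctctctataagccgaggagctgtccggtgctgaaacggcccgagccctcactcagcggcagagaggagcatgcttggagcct
Pcsk1 promoter: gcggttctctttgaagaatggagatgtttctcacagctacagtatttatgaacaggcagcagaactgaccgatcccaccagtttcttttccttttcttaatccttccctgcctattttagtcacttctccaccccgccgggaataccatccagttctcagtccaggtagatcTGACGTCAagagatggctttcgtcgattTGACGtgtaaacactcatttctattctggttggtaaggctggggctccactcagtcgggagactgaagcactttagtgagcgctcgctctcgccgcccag

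TTGGC, the shorter motif of the nuclear factor I family to which NFIB belongs, occurred on either strand in 4 of the 8 promoters (Chga, Scg5, Pcsk2 and Resp18) and in 46.7% of all promoters. The full NFI palindrome occurred in none of the 8 and in 0.0366% of all. The E-box CAGCTG occurred in 4 of 8 against 16.3%, and TATAAA in 1 of 8, that of Chga, against 13.6%. Letters of the RE1 element bound by the repressor REST occurred on the minus strand of the Scg2 promoter and in no other member's, TTCAGCACC at base -7 (0.372% of all promoters) and GGACAG at base -13 (22.2%). These matches describe letters in a window, and binding was not tested.

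Per kb of exon, several granule genes were among the more abundant transcripts of TKO tumors. Scg2 averaged 267 ± 404 CPM per kb (SD, n = 3), Cpe 128 ± 36.4, Chga 96.2 ± 43.96, Scg3 62.9 ± 2.01, Chgb 56.5 ± 43.2 and Scg5 41.2 ± 5.17 CPM per kb. The level of Scg2 was above that of 99.5% and the level of Scg5 above that of 94.1% of the 15514 genes tested. Resp18 averaged 14.3 ± 6.51, Pcsk2 8.05 ± 7.48, Vgf 7.47 ± 2.53 and Pcsk1 3.39 ± 2.86 CPM per kb, the last above 42.1% of genes. The ranges of neighbours in this order overlapped except between Scg5 and Resp18 and between Vgf and Pcsk1, and Scg2 alone ranged from 13.5 to 733 CPM per kb within TKO.

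RNA of 9 of the 10 members was low in 5 of the 6 mutant libraries, where it averaged 0.0654 to 6.9% of the TKO mean, while Cpe averaged 74.05%. In 8 members that average was under 1%. Carm1 mutant replicate 3 held the granule genes at 10.1 to 79.4% of the TKO mean for Chga, Chgb, Scg2, Scg3, Scg5 and Pcsk2, and above every TKO library for Pcsk1, Vgf and Resp18. Summed over the 9 members other than Cpe, TKO libraries held 819, 614 and 2911 CPM, Carm1 mutant libraries 2.37, 2.33 and 848 CPM and R388K mutant libraries 6.32, 4.5 and 1.78 CPM.

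In 1 model of all 9 libraries, 8 of the 10 members were lower in R388K mutant than in TKO tumors and none was higher, where 23.5% of the 15514 genes tested were lower and 22.3% higher. In Carm1 mutant tumors 1 of the 10 was lower, Pcsk2, where 18.3% of genes were lower and 20.5% higher. Calls needed an adjusted p below 0.1 (edgeR quasi-likelihood test, Benjamini-Hochberg over all genes) together with a log2 fold change of 0.8 or more in size. Without Carm1 mutant replicate 3, 9 of the 10 members were lower in Carm1 mutant tumors, where 19.8% of genes were, and 9 of 10 in R388K mutant tumors, where 23.4% were. The median log2 fold change of the members was -8.53 in R388K mutant and -2.34 in Carm1 mutant tumors, beside -0.05 and -0.03 over all genes. Without that replicate the median in Carm1 mutant tumors was -9.98, or -7.96 with the 3 members without reads taken at 3 counts per library.

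**Figure D1:**
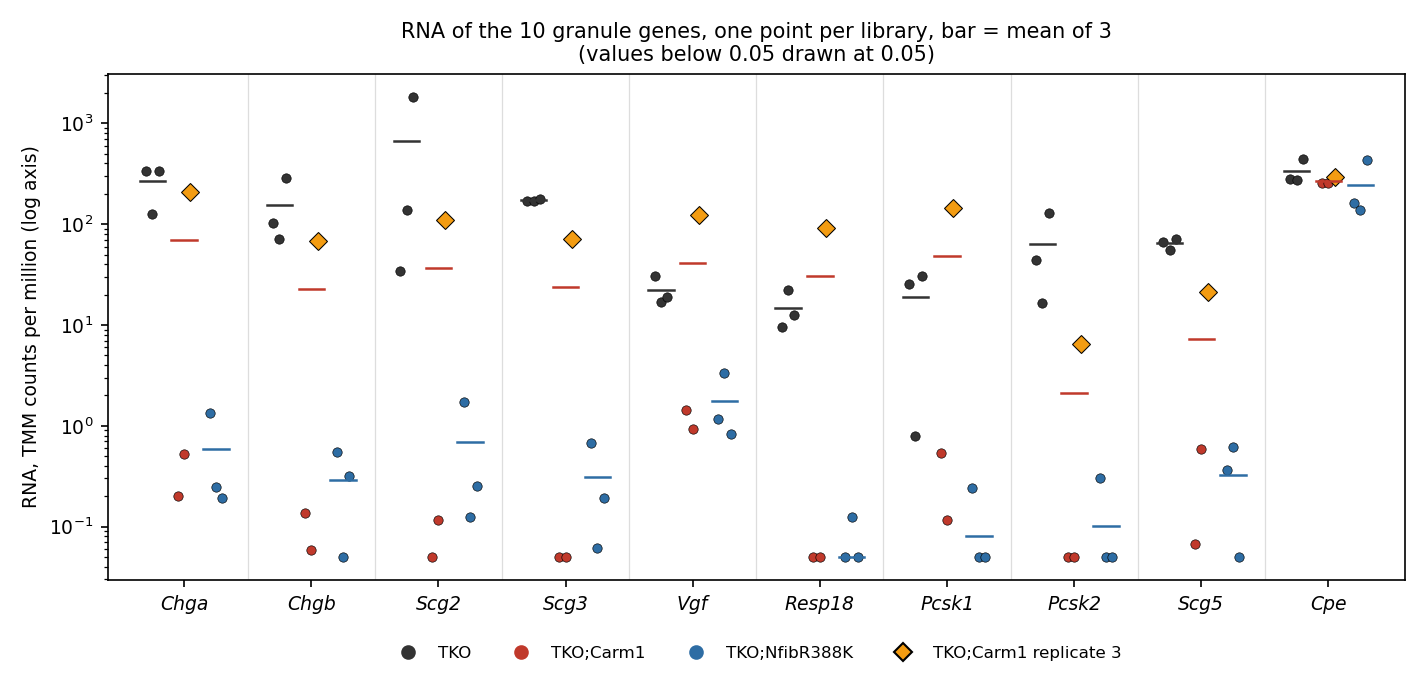
RNA of each granule gene in TMM-scaled CPM on a log axis, with 3 libraries per genotype, bars at the means of 3 and values below 0.05 drawn at 0.05. The TKO;Carm1 replicate 3 library (diamond) lies above the other 5 mutant libraries in 9 of the 10 genes, and in Cpe the 3 genotypes overlap. The share of all genes with that library on top was not computed.

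All 3 R388K mutant libraries lay below all 3 TKO libraries in 9 of the 10 members, against 30.5% of genes tested. The 5 mutant libraries other than Carm1 mutant replicate 3 lay below every TKO library in 9 of 10, against 26.6% of genes. With all 6 mutant libraries the count was 4. That replicate was set apart for its high values in these same genes, so counts of members without it were partly fixed by that choice. All fold changes and adjusted p-values given without it rest on the same choice and are no independent test. That replicate itself lay below every TKO library in 4 members, Chgb, Scg3, Scg5 and Pcsk2. For these counts of 4 the share over all genes was not computed.

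Chga was read at 336, 125 and 334 CPM in TKO, 0.203, 0.525 and 210.5 CPM in Carm1 mutant and 1.34, 0.247 and 0.191 CPM in R388K mutant tumors. Among the mutant libraries only Carm1 mutant replicate 3 lay within the TKO range. The log2 fold change of Chga was -8.78 ± 2.65 SE (adjusted p = 0.031) in R388K mutant tumors and -1.91 ± 1.90 SE (adjusted p = 0.45) in Carm1 mutant tumors. Without Carm1 mutant replicate 3 the latter was -9.41 ± 1.14 SE (adjusted p = 0.0024).

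Chgb, which encodes chromogranin B, was read at 102, 71.8 and 290.3 CPM in TKO, 0.136, 0.0583 and 67.8 CPM in Carm1 mutant and 0.547, 0 and 0.318 CPM in R388K mutant tumors. Here Carm1 mutant replicate 3 lay just under the lowest TKO library. The log2 fold change was -9.03 ± 2.67 SE (adjusted p = 0.029) in R388K mutant and -2.77 ± 1.93 SE (adjusted p = 0.28) in Carm1 mutant tumors. Replicates 1 and 2 of the Carm1 mutant held 3 reads beside 10323 in TKO, a level 1657-fold lower (95% counting interval 567 to 8036). Such intervals, here and below, pool the reads of a group and leave out the spread between tumors. Without replicate 3 Chgb was called lower in Carm1 mutant tumors (adjusted p = 0.0034, edgeR).

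Scg2, the precursor of secretoneurin, was the most uneven member within TKO. It was read at 34.1, 137 and 1844 CPM in TKO, 0, 0.117 and 109.8 CPM in Carm1 mutant and 1.7, 0.123 and 0.254 CPM in R388K mutant tumors. Its share of the summed granin CPM was 5.3, 27.3 and 69.7% in the TKO libraries and 23.9% in Carm1 mutant replicate 3. The log2 fold change was -9.90 ± 3.27 SE (adjusted p = 0.042) in R388K mutant and -4.19 ± 2.48 SE (adjusted p = 0.21) in Carm1 mutant tumors. The call in R388K mutant tumors was lost without R388K mutant replicate 2 or 3 (adjusted p = 0.12 and 0.12, edgeR). Carm1 mutant replicates 1 and 2 held 2 reads beside 45454 in TKO, a level 10940-fold lower (95% counting interval 3029 to 90370). Of these TKO reads 41606 came from replicate 3, so the fold rests mostly on 1 TKO library and the interval does not cover that spread. Without Carm1 mutant replicate 3 Scg2 was called lower in Carm1 mutant tumors (adjusted p = 0.017, edgeR).

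Scg3, a granin that binds chromogranin A and granule membranes, was the steadiest member in TKO. It was read at 170, 168 and 178 CPM in TKO, 0, 0 and 71.8 CPM in Carm1 mutant and 0.669, 0.0617 and 0.191 CPM in R388K mutant tumors. Carm1 mutant replicates 1 and 2 held no read of it and were at least 909.8-fold lower than TKO, taking 3 counts per library as the limit. The log2 fold change was -9.09 ± 2.75 SE (adjusted p = 0.031) in R388K mutant tumors and -2.84 ± 1.99 SE (adjusted p = 0.29) in Carm1 mutant tumors, where Scg3 was called lower without replicate 3 (adjusted p = 0.0015, edgeR).

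The cargo genes showed the same low libraries but a high Carm1 mutant replicate 3. Vgf, a precursor of neuropeptides, was read at 30.8, 16.7 and 19.1 CPM in TKO, 1.42, 0.933 and 122 CPM in Carm1 mutant and 1.16, 3.33 and 0.826 CPM in R388K mutant tumors. Its log2 fold change was -3.64 ± 1.71 SE (adjusted p = 0.12) in R388K mutant and 0.90 ± 1.54 SE (adjusted p = 0.67) in Carm1 mutant tumors, neither of which passed the test. Without Carm1 mutant replicate 3 it was lower in both, at -3.61 ± 0.65 SE (adjusted p = 0.0056) and -4.18 ± 0.79 SE (adjusted p = 0.0094). The fold change in R388K mutant tumors hardly moved, while its SE fell from 1.71 to 0.65 with the library left out.

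Resp18, an endocrine protein of the secretory pathway, was read at 9.46, 22.4 and 12.6 CPM in TKO, 0, 0 and 92.3 CPM in Carm1 mutant and 0, 0.123 and 0 CPM in R388K mutant tumors. The 3 R388K mutant libraries held 2 reads in all beside 992 in TKO, a level 362-fold lower (95% counting interval 100.1 to 2997), and the gene was called lower (adjusted p = 0.067, edgeR). Carm1 mutant replicates 1 and 2 held no read and were at least 78.2-fold lower than TKO, while replicate 3 was the highest library of all. In Carm1 mutant tumors Resp18 did not pass the test with replicate 3 (adjusted p = 0.72, edgeR) and was called lower without it (adjusted p = 0.0078, edgeR).

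Pcsk1, a convertase that acts early in prohormone processing, was read at 25.5, 0.787 and 30.8 CPM in TKO, 0.542, 0.117 and 146 CPM in Carm1 mutant and 0.243, 0 and 0 CPM in R388K mutant tumors. TKO replicate 2 was close to the low mutant libraries, and Carm1 mutant replicate 3 was above every other library. The log2 fold change was -7.74 ± 3.02 SE (adjusted p = 0.07) in R388K mutant and 1.36 ± 2.11 SE (adjusted p = 0.63) in Carm1 mutant tumors. Without Carm1 mutant replicate 3 the latter was -5.80 ± 2.01 SE (adjusted p = 0.064). The calls of Pcsk1 and Resp18 in R388K mutant tumors were lost with no filter on low counts (adjusted p = 0.12 and 0.12, edgeR) and without any single R388K mutant library, that of Pcsk1 also without TKO replicate 1 or 3 and that of Resp18 also without TKO replicate 1 or 2.

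Pcsk2, the second granule convertase, was read at 44.5, 16.4 and 130.1 CPM in TKO, 0, 0 and 6.41 CPM in Carm1 mutant and 0.304, 0 and 0 CPM in R388K mutant tumors. It was the single member called lower in both mutants with all libraries, at -4.88 ± 2.02 SE (adjusted p = 0.093) in Carm1 mutant and -9.19 ± 2.56 SE (adjusted p = 0.023) in R388K mutant tumors. The call in Carm1 mutant tumors stood without Carm1 mutant replicate 3 and was lost without any of the other 8 libraries. Replicates 1 and 2 of the Carm1 mutant held no read and were at least 336-fold lower than TKO. The ratio of Pcsk1 to Pcsk2 CPM was 0.572, 0.048 and 0.237 in the TKO libraries and 22.8 in Carm1 mutant replicate 3.

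Scg5, which encodes the 7B2 chaperone of Pcsk2, was read at 66.2, 55.9 and 71.96 CPM in TKO, 0.0678, 0.583 and 21.4 CPM in Carm1 mutant and 0.365, 0.617 and 0 CPM in R388K mutant tumors. All 6 mutant libraries lay below the TKO range. The log2 fold change was -7.59 ± 2.06 SE (adjusted p = 0.021) in R388K mutant and -3.14 ± 1.63 SE (adjusted p = 0.16) in Carm1 mutant tumors. The latter did not pass the test, but it was -7.53 ± 1.28 SE (adjusted p = 0.007) and called lower without Carm1 mutant replicate 3.

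Cpe, which is also made outside endocrine cells, was abundant in every library. It was read at 284, 276 and 444 CPM in TKO, 254, 256 and 295 CPM in Carm1 mutant and 161, 138 and 429 CPM in R388K mutant tumors. The groups overlapped, with log2 fold changes of -0.32 (95% interval -1.16 to 0.52, adjusted p = 0.58, edgeR) in Carm1 mutant and -0.46 (95% interval -1.30 to 0.38, adjusted p = 0.4, edgeR) in R388K mutant tumors. Without R388K mutant replicate 3 the latter was -1.15 and Cpe was called lower.

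**Figure D2:**
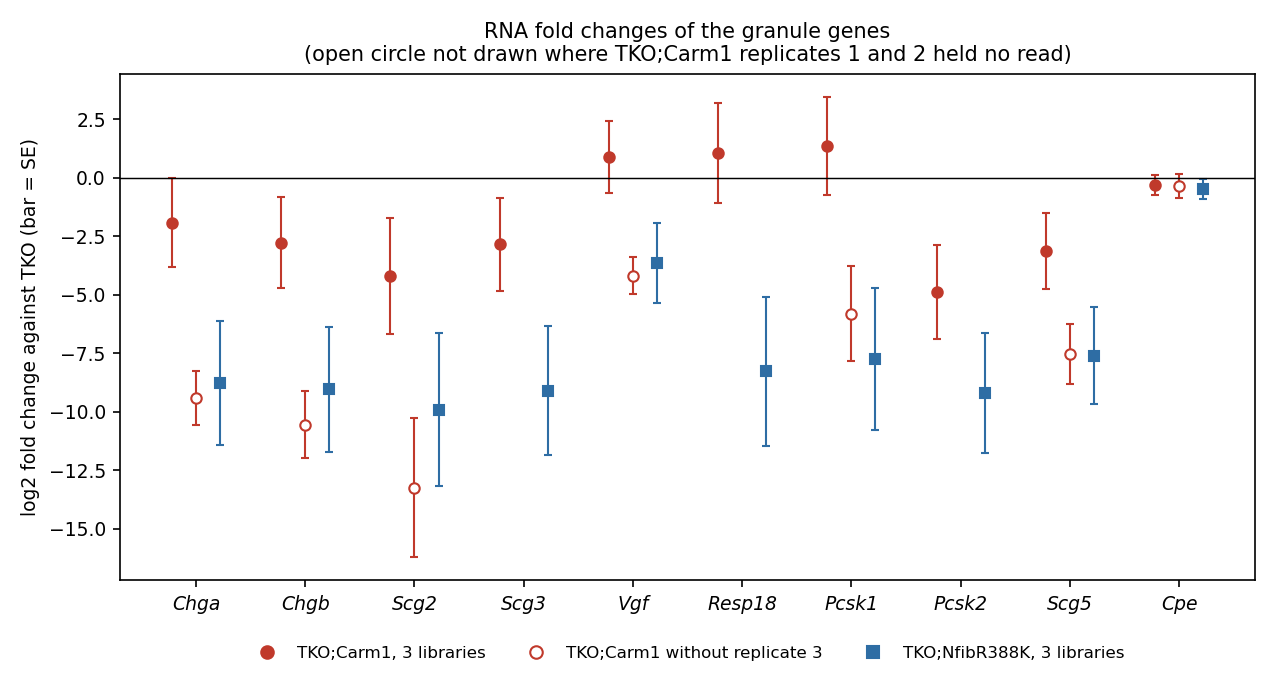
Log2 fold changes of RNA against TKO with standard errors for the 10 genes, from all 9 libraries (filled) and without TKO;Carm1 replicate 3 (open circles, not drawn for Scg3, Pcsk2 and Resp18, of which the remaining TKO;Carm1 libraries held no read). The Chga value in TKO;Carm1 moves from -1.91 to -9.41 and the Pcsk1 value from 1.36 to -5.80 when that library is left out, and the Cpe values stay near 0.

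Between the mutants no member was called by edgeR, nor was any of the genes tested (0%). At an unadjusted p below 0.05, 7 of the 10 members were higher in Carm1 mutant than in R388K mutant tumors, against 5.29% of the genes tested. Without Carm1 mutant replicate 3 that count was 0, and 1, Scg3, was lower. DESeq2 called 2 of the 6 members to which it gave an adjusted p, Chgb and Pcsk1, both higher in Carm1 mutant tumors.

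Markers of other cell types differed between TKO and mutant libraries, and their part in these results was not tested. The 6 fibroblast markers (Col1a1, Col1a2, Col3a1, Dcn, Lum and Pdgfra) summed to 11.2 to 63.4 CPM in TKO and 9479 to 25790 CPM in the mutants, with 6 of 6 higher in Carm1 mutant and 5 of 6 in R388K mutant tumors. Carm1 mutant replicate 3 had the highest fibroblast sum of all libraries and the highest values of the 3 collagen genes, while its Pdgfra was the lowest of the mutant libraries and its Dcn and Lum the lowest of the Carm1 mutant libraries. The 8 neuroendocrine markers (Syp, Ncam1, Uchl1, Ddc, Dll3, Snap25, Stmn2 and Eno2) summed to 948 to 1904 CPM in TKO, 596 CPM in Carm1 mutant replicate 3 and 59.2 to 195 CPM in the other mutant libraries. Syp, a defining marker of the labelled cell type, was at 51.7 to 132 CPM in TKO and 38.1 CPM in Carm1 mutant replicate 3. In the other 5 mutant libraries it was nearly absent, at 0.185 to 0.912 CPM, and Ddc, Dll3 and Snap25 reached at most 1.95 CPM. Other markers of the list were kept in part in those libraries. Ncam1 was at 14.2 to 148.8 CPM there, beside 159 to 284 CPM in TKO. Eno2 was at 11.1 to 75.8 CPM, beside 51.3 to 129.6 CPM in TKO, and Uchl1 at 3.37 to 33.4 CPM, beside 387 to 425 CPM. In bulk samples, fewer cells of a type and less RNA per cell cannot be told apart.

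The 8 leukocyte markers summed to 2.58 to 14.8 CPM in TKO and 27.4 to 704 CPM in the mutants, highest in Carm1 mutant replicate 3, with Cd3e at 0 throughout. The 8 lung epithelial markers summed to 14.4 to 45.7 CPM in TKO, 778 CPM in Carm1 mutant replicate 3, 2732 and 205 CPM in R388K mutant replicates 1 and 2, and 2.92 to 9.1 CPM in the other mutant libraries. The 6 endothelial markers summed to 0.547 to 17.4 CPM in all libraries.

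**Figure D3:**
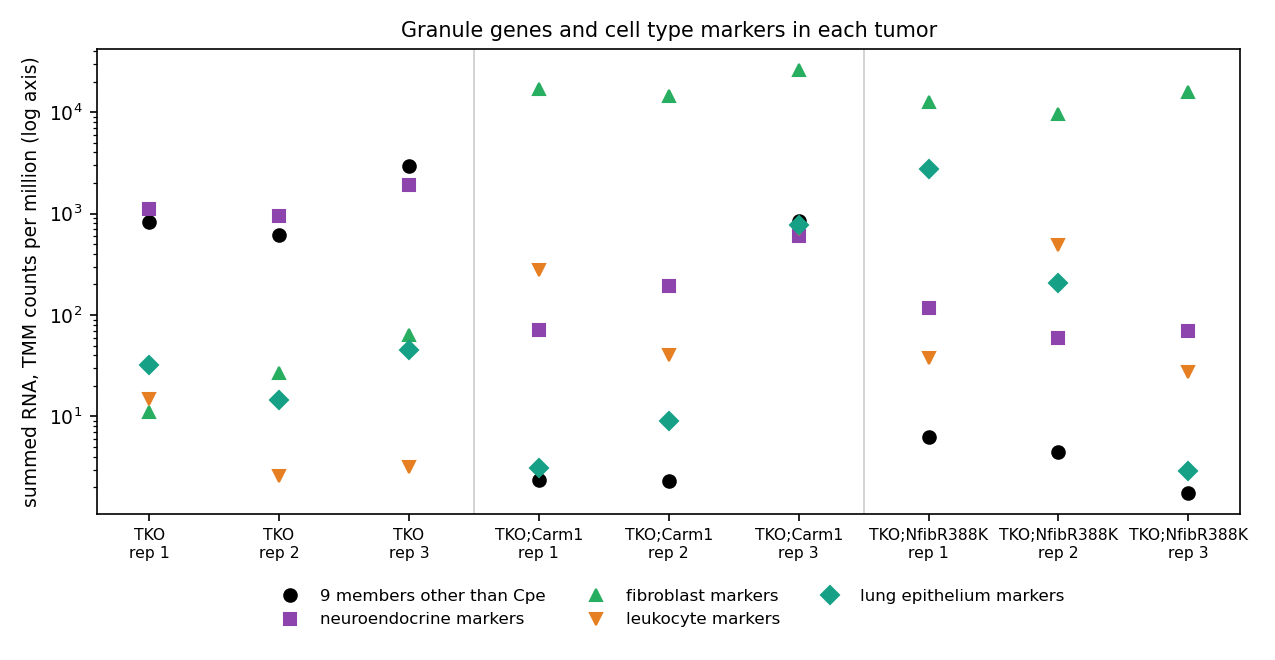
Summed TMM-scaled CPM, on a log axis, of the 9 granule genes other than Cpe and of 4 marker lists in each RNA-seq library. Fibroblast markers reach 9479 to 25790 in the 6 mutant libraries, of which TKO;Carm1 replicate 3 alone also has a granule gene sum near TKO, 848.

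Of 25 further genes of the granule pathway, 23 were tested, of which 10 were lower and 2 higher in R388K mutant tumors, and 3 lower and 0 higher in Carm1 mutant tumors. Over all genes 23.5% were lower and 22.3% higher in R388K mutant and 18.3% lower and 20.5% higher in Carm1 mutant tumors, so the count of pathway genes lower in Carm1 mutant tumors was below the share over all genes. Their median log2 fold change was -1.23 and -1.08. Without Carm1 mutant replicate 3, 11 were lower in Carm1 mutant tumors, against 19.8% of all genes and with a median of -2.10, and 12 in R388K mutant tumors, against 23.4%. Rab3a and Ica1 were lower in both mutants. Rab3a, a GTPase of secretory vesicles, was read at 45.5, 49.5 and 90.04 CPM in TKO, 18.98, 24.9 and 31.5 CPM in Carm1 mutant and 17.8, 13.2 and 16.1 CPM in R388K mutant tumors, log2 fold changes of -1.30 ± 0.32 SE (adjusted p = 0.017) and -1.97 ± 0.32 SE (adjusted p = 0.0031). Ica1, a protein of granule biogenesis, was read at 50.1, 88.6 and 50.4 CPM in TKO, 16.9, 18.9 and 25.8 CPM in Carm1 mutant and 17.5, 10.7 and 35.6 CPM in R388K mutant tumors, log2 fold changes of -1.61 ± 0.46 SE (adjusted p = 0.029) and -1.57 ± 0.46 SE (adjusted p = 0.027). In both genes every mutant library, Carm1 mutant replicate 3 included, lay below every TKO library. Qpct, the glutaminyl cyclase of peptide hormones, named after its values were seen, was read at 15.9, 12.5 and 39.2 CPM in TKO, 5.9, 4.37 and 5.96 CPM in Carm1 mutant and 39.6, 68.1 and 39.2 CPM in R388K mutant tumors and was called lower in Carm1 mutant and higher in R388K mutant tumors, though the difference between the mutants did not pass the test (adjusted p = 0.21, edgeR) and was called by DESeq2 alone among the fits tried. Every Carm1 mutant library lay below every R388K mutant library.

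Convertases and carboxypeptidases that are not specific to granules moved in both directions. Of 13 listed, 12 were tested, with 5 higher and 2 lower in Carm1 mutant and 5 higher and 1 lower in R388K mutant tumors. Over all genes 20.5% were higher and 18.3% lower in Carm1 mutant and 22.3% higher and 23.5% lower in R388K mutant tumors. The counts of listed genes that were lower did not exceed those shares. Their median log2 fold changes were 0.70 and 0.88. Furin, the trans-Golgi convertase of most cells, was read at 41.6, 25.1 and 33.1 CPM in TKO, 208, 276 and 158 CPM in Carm1 mutant and 199.8, 227 and 221 CPM in R388K mutant tumors and rose in both, with log2 fold changes of 2.69 ± 0.27 SE (adjusted p = 0.00072) and 2.70 ± 0.27 SE (adjusted p = 0.00053). Cpxm1, a carboxypeptidase-like protein, was read at 10.3, 5.64 and 4.52 CPM in TKO, 119, 50.9 and 89.3 CPM in Carm1 mutant and 316, 85.7 and 32.1 CPM in R388K mutant tumors, log2 fold changes of 3.66 ± 0.84 SE (adjusted p = 0.014) and 4.403 ± 0.87 SE (adjusted p = 0.0067). Cpz, a carboxypeptidase of the extracellular matrix, held no read in TKO. It was read at 2.24, 0.175 and 2.64 CPM in Carm1 mutant and 10.8, 1.6 and 1.715 CPM in R388K mutant tumors. Carm1 mutant replicate 2 was thus at the level of 3 counts, and R388K mutant replicate 1 was the highest. By the means, Cpz was at least 12.4-fold higher in Carm1 mutant and at least 34.5-fold higher in R388K mutant tumors. Cpxm2 was higher in both as well but reached only 0.0583 to 4.72 CPM in the mutants, and its calls were lost in Carm1 mutant tumors without TKO replicate 2 or 3 or Carm1 mutant replicate 3, and in R388K mutant tumors without TKO replicate 2 or 3 or any single R388K mutant library. Pcsk4 fell in both, from 7.22 to 17.6 CPM in TKO to 1.33 to 4.72 CPM in the mutants, a call that was lost in Carm1 mutant tumors without TKO replicate 1.

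Among regulators of endocrine genes, Insm1, a zinc finger factor of endocrine cells, was read at 257, 326 and 254 CPM in TKO, 0, 4.43 and 83.9 CPM in Carm1 mutant and 0.79, 0.431 and 0 CPM in R388K mutant tumors, and the homeobox factor Prox1 at 222, 534 and 365 CPM in TKO, 0.0678, 0.117 and 54.4 CPM in Carm1 mutant and 2.61, 1.36 and 0 CPM in R388K mutant tumors. Both were lower in R388K mutant tumors (adjusted p = 0.015 and 0.031, edgeR), did not pass the test in Carm1 mutant tumors with all libraries but were called lower there without Carm1 mutant replicate 3 (adjusted p = 0.019 and 0.0043, edgeR), and were higher in Carm1 mutant replicate 3 than in the other mutant libraries. Neurod1 differed in that library, since it held no read in any mutant library and was at 1.78, 9.88 and 3.15 CPM in TKO, at least 27.1-fold lower in Carm1 mutant and at least 26.5-fold lower in R388K mutant tumors. Nkx2-1, a lung homeobox factor, was at 236 to 601 CPM in TKO and 0.191 to 102 CPM in the mutants and did not pass the test (adjusted p = 0.24 and 0.13, edgeR), though it was called lower in R388K mutant tumors by DESeq2 and by edgeR without Carm1 mutant replicate 1 or R388K mutant replicate 1.

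Rest, which encodes a repressor of neuronal genes, was read at 4.18, 6.69 and 5.63 CPM in TKO, 60.1, 60.5 and 50.1 CPM in Carm1 mutant and 57.5, 63.9 and 47.3 CPM in R388K mutant tumors. It rose in both mutants, with log2 fold changes of 3.37 ± 0.24 SE (adjusted p = 0.00033) and 3.35 ± 0.24 SE (adjusted p = 0.00026).

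ATAC-seq accessibility at the granule genes was lower in more peaks than it was higher. Of the 36 peaks of the members, 20 were lower and 8 higher in Carm1 mutant, and 22 lower and 8 higher in R388K mutant tumors, with the same adjusted p and a log2 fold change of 0.5 or more in size. Over the 111116 peaks tested, 32.4% were lower and 38.7% higher in Carm1 mutant, and 34.0% lower and 39.3% higher in R388K mutant tumors. Between the mutants no member peak and 0% of all peaks were called. The median log2 fold change of the members' peaks was -1.70 and -2.33, beside 0.22 and 0.22 over all peaks. Scaling by library totals alone raised the median of all peaks to 0.79 in both comparisons and left 17 and 20 member peaks lower, with 9 and 9 higher.

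The peak at or nearest to the gene start was lower in both mutants for 8 of the 10 members, all but Pcsk1 and Vgf. Over all peaks 32.4% were lower in Carm1 mutant and 34.0% in R388K mutant tumors. The share lower in both, and the share among start peaks of all genes, were not computed. At the Chga start (chr12:102553648-102556455, covering the promoter printed above) the peak gave 57.4, 44.5 and 33.7 CPM in TKO, 1.99, 1.79 and 13.2 CPM in Carm1 mutant and 1.91, 1.78 and 1.12 CPM in R388K mutant tumors. Carm1 mutant replicate 3 was the highest mutant library and lay below every TKO library. The log2 fold changes were -3.00 ± 0.68 SE (adjusted p = 0.0032) and -4.82 ± 0.74 SE (adjusted p = 0.00037).

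At the Scg3 start (chr9:75683321-75684550) the peak gave 24.3, 25.6 and 22.3 CPM in TKO, 0.543, 0.691 and 3.85 CPM in Carm1 mutant and 0.209, 0.193 and 0.667 CPM in R388K mutant tumors, log2 fold changes of -3.83 ± 0.75 SE (adjusted p = 0.0015) and -6.03 ± 0.85 SE (adjusted p = 0.00022). At the Chgb start (chr2:132780779-132782313) it gave 56.3, 64.7 and 40.1 CPM in TKO, 2.87, 3.25 and 11.7 CPM in Carm1 mutant and 2.63, 1.88 and 2.39 CPM in R388K mutant tumors. In both genes the mutant libraries lay below TKO without overlap. The smaller Scg2 start peak (chr1:79439733-79440296) gave 3.7, 7.05 and 6 CPM in TKO, 1.29, 1.44 and 2.37 CPM in Carm1 mutant and 0.598, 0.577 and 1.43 CPM in R388K mutant tumors, and it too was called lower in both.

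At the Pcsk2 start (chr2:143545107-143548544, where the antisense gene Pcsk2os1 overlaps) the peak gave 46.3, 28.6 and 59.9 CPM in TKO, 5.14, 5.01 and 8.34 CPM in Carm1 mutant and 2.48, 3.15 and 3.08 CPM in R388K mutant tumors. At the Scg5 start (chr2:113828018-113829590) it gave 26.7, 23.6 and 17.6 CPM in TKO, 1.45, 1.57 and 4.26 CPM in Carm1 mutant and 1.34, 2.24 and 1.88 CPM in R388K mutant tumors. At the Resp18 start (chr1:75277745-75278789) it gave 5.83, 5.47 and 4.78 CPM in TKO, 0.568, 0.538 and 1.959 CPM in Carm1 mutant and 0.359, 0.77 and 0.255 CPM in R388K mutant tumors. In all 3 the mutants lay below TKO without overlap. Of the 36 member peaks, 19 lay below TKO without overlap in the mutant libraries and 7 above. The share of such peaks over all peaks was not computed.

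The single Pcsk1 peak, at the start (chr13:75089726-75090764), was high in 1 TKO library. It gave 2.33, 1.76 and 12.8 CPM in TKO, 1.45, 1.498 and 5.92 CPM in Carm1 mutant and 1.85, 1.32 and 2.67 CPM in R388K mutant tumors, and the groups overlapped. Its log2 fold changes of -0.92 ± 0.80 SE (adjusted p = 0.32) and -1.52 ± 0.81 SE (adjusted p = 0.12) did not pass the test, but without Carm1 mutant replicate 3 the peak was called lower in both mutants (adjusted p = 0.072 and 0.086, edgeR), as it was in R388K mutant tumors without TKO replicate 1 or 2. Carm1 mutant replicate 3 was second to TKO replicate 3 at this peak.

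The peak nearest to the Vgf start lies 551 bp from it (chr5:137025016-137025841), gave 5.07, 3.99 and 4.18 CPM in TKO, 2.74, 3.07 and 4.04 CPM in Carm1 mutant and 3.11, 3.58 and 3.69 CPM in R388K mutant tumors and was called in neither mutant. Another, with its middle 3.63 kb downstream (chr5:137029214-137030841), covers the starts of 3 of the 4 annotated Vgf transcripts and was chosen for that after its values were seen. It gave 21.96, 17.2 and 16.1 CPM in TKO, 7.47, 9.58 and 11.7 CPM in Carm1 mutant and 6.96, 7.07 and 6.5 CPM in R388K mutant tumors and was lower in both, at -0.94 ± 0.26 SE (adjusted p = 0.0093) and -1.43 ± 0.27 SE (adjusted p = 0.001) on the log2 scale, of which the call in Carm1 mutant tumors was lost with library totals alone.

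**Figure D4:**
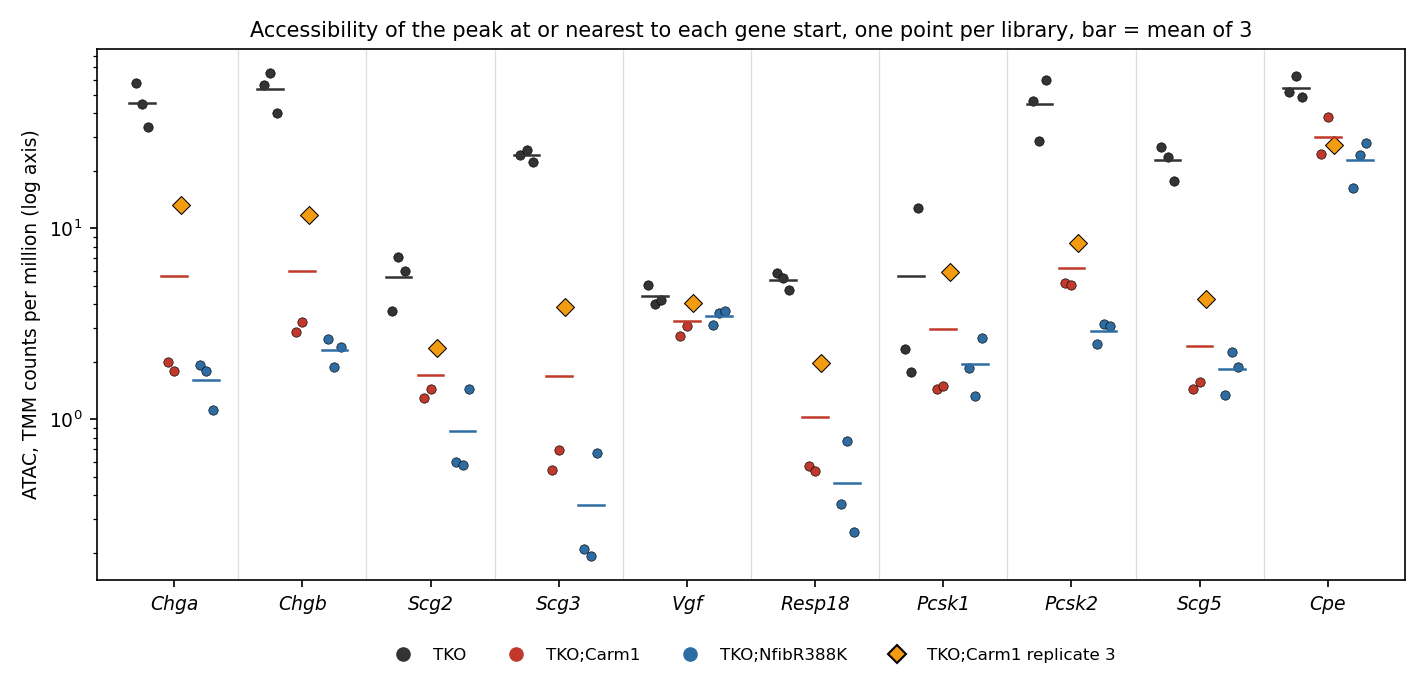
ATAC-seq TMM-scaled CPM, on a log axis, of the peak at or nearest to the start of each granule gene, with 3 libraries per genotype and bars at the means of 3. The TKO;Carm1 replicate 3 library (diamond) lies above the other 5 mutant libraries at 9 of the 10 starts and below every TKO library at 8. The shares of all peaks in such an order were not computed.

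Pcsk2, 270130 bp long, held 9 peaks, of which 8 were lower in Carm1 mutant and 9 in R388K mutant tumors. Over all peaks 32.4% and 34.0% were lower. With library totals alone 7 and 8 of the Pcsk2 peaks were lower. The Carm1 mutant call at 120.8 kb stood in 6 of 18 alternatives and the R388K mutant call at 261 kb in 12 of 19. An intronic peak 95.7 kb from the start (chr2:143641153-143642493) gave 23.3, 17.8 and 10.5 CPM in TKO, 0.155, 0.211 and 1.55 CPM in Carm1 mutant and 0.0897, 0.289 and 0.393 CPM in R388K mutant tumors, log2 fold changes of -4.75 ± 0.87 SE (adjusted p = 0.0011) and -6.01 ± 0.94 SE (adjusted p = 0.00039). An intronic peak at 150 kb, named after its values were seen, was high in TKO replicate 3 alone, at 0.574, 0.742 and 19.5 CPM in TKO.

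At the Cpe start (chr8:64691868-64693670) the peak gave 51.8, 62.6 and 48.5 CPM in TKO, 24.5, 38.2 and 27.4 CPM in Carm1 mutant and 16.2, 24.2 and 28 CPM in R388K mutant tumors, log2 fold changes of -0.85 ± 0.23 SE (adjusted p = 0.0081) and -1.25 ± 0.23 SE (adjusted p = 0.0011), and the call in Carm1 mutant tumors was lost with library totals alone and with scaling by start sites of uniformly expressed genes. An intronic peak 77.5 kb from the start (chr8:64615017-64616149) rose in both mutants. It gave 0.383, 0.958 and 0.887 CPM in TKO, 10.1, 7.85 and 8.95 CPM in Carm1 mutant and 5.8, 7.29 and 10.5 CPM in R388K mutant tumors, log2 fold changes of 3.59 ± 0.46 SE (adjusted p = 0.00015) and 3.41 ± 0.46 SE (adjusted p = 0.00017). Of the 10 Cpe peaks, 5 were higher and 2 lower in Carm1 mutant and 4 higher and 2 lower in R388K mutant tumors, beside 38.7% higher and 32.4% lower and 39.3% higher and 34.0% lower over all peaks.

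**Figure D5:**
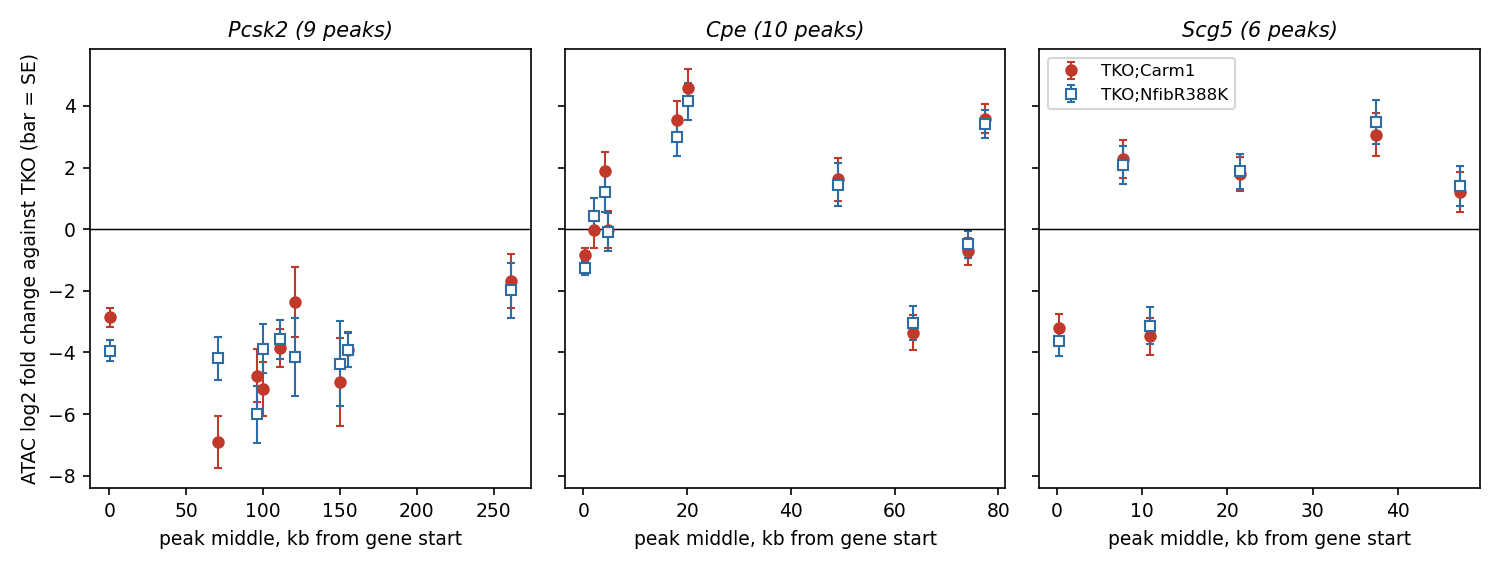
ATAC-seq log2 fold changes against TKO with standard errors for each peak of Pcsk2, Cpe and Scg5, by the distance of the peak's middle from the gene start in kb. All 9 Pcsk2 peaks lie below 0, whereas Cpe and Scg5 have peaks on both sides of 0, and both comparisons share the TKO libraries.

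Scg5 held peaks of both directions, with 3 of 6 higher and 2 lower in Carm1 mutant and 4 higher and 2 lower in R388K mutant tumors, on few peaks and beside the same shares over all peaks. The peak at 7.72 kb (chr2:113820796-113822002) gave 1.98, 1.79 and 1.86 CPM in TKO, 14.4, 10.5 and 2.25 CPM in Carm1 mutant and 10.6, 9.24 and 4.1 CPM in R388K mutant tumors and rose in both, with log2 fold changes of 2.27 ± 0.62 SE (adjusted p = 0.0082) and 2.08 ± 0.62 SE (adjusted p = 0.012). In windows of 300 bases at the peaks' middles, TTGGC occurred in 15 of the 36 members' peaks (41.7%) and in 50.6% of all peaks, and CAGCTG in 10 (27.8%) against 22.7%.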

How the data were processed

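RNA-seq and ATAC-seq were analysed in 9 libraries each, grouped by their labels, with depths given above. For RNA-seq the authors trimmed the reads, mapped them with HISAT2 and deposited unnormalized counts per gene made with htseq-count. The authors mapped the ATAC-seq reads with Bowtie2 and removed duplicates. Regions of altered copy number were left out by the study's methods, and the deposited values are unnormalized counts per peak from featureCounts, per the file headers. The submitters' processing notes name Genrich, the methods MACS2. The tables name the groups C, KO and N. These were read as TKO, TKO;Carm1 and TKO;NfibR388K, from the control, CARM1 knockout and NFIB mutant of the study's legends. The letters are not defined there, so this reading is inferred.

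The members and lists were chosen with earlier results of these data known. Gene coordinates, exon lengths and transcript starts were taken from GENCODE (GRCm38), and 45143 of 46078 gene identifiers matched. Promoters are RefSeq sequences of GRCm38.p6.

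Counts were fitted with edgeR 4.0.16 in R 4.3.3 (TMM factors, filterByExpr, robust quasi-likelihood test, 1 model of 9 libraries, Benjamini-Hochberg adjustment over all features), with DESeq2 1.42.0 as an alternative, and summarised in Python 3.11.15 with pandas 2.3.3, scipy 1.17.1, pysam 0.24.0 and matplotlib 3.10.9. P-values rest on the spread of 3 libraries per genotype. The fits were tested on simulated data in which changed features were lowered alike in all Carm1 mutant libraries. Such data do not cover a single library that stands apart, as Carm1 mutant replicate 3 does here. Alternatives were other scalings, filters, thresholds and peak assignments, a replicate block and leaving out each library in turn.

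Named were all members and 6 regulators, of which 1 is not reported here. From 2 lists of pathway genes and of general convertases and carboxypeptidases, the 4 largest rises and falls among genes called alike in both mutants were named, which gave 4 rises and 3 falls, and genes called between the mutants, of which there were none. Of the peaks, the one at or nearest to each start and the 3 largest falls and rises of at least 3 log2 CPM were named, of which 2 rises qualified. Other peaks were chosen after their values were seen.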

Additional observations from a re-analysis of the deposited data

How the results depend on the processing

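With all libraries 1 member was called in Carm1 mutant tumors. That count was 0 at an adjusted p below 0.05, with no filter on low counts, with at least 10 counts in every library (2 members tested) and in a fit of the 2 genotypes alone, and leaving out each library in turn gave 0 to 9, with 9 only without Carm1 mutant replicate 3. DESeq2 also called 1, Scg5 in place of Pcsk2. In R388K mutant tumors the 8 called became 5 of 6 with DESeq2, 0 of 2 with at least 10 counts in every library and 5 to 9 with each library left out, 5 without R388K mutant replicate 2. Between the mutants DESeq2 called 2 members and 2 granule pathway genes, against 0. Member peaks called (28 and 30) became 14 and 15 of 21 with at least 10 counts in every library and 8 and 8 of 10 when counted within 1000 bp of the start, where fewer peaks entered, and 26 to 29 and 27 to 31 with each library left out. Granule pathway genes called in Carm1 mutant tumors (3) became 5 with library totals, 6 with DESeq2 and 3 to 11 with each library left out, 11 without Carm1 mutant replicate 3. In R388K mutant tumors they were 12, 7 with at least 10 counts in every library and 8 to 14 with each library left out. General convertases called in Carm1 mutant tumors (7) became 4 with at least 10 counts in every library. Where neither the number of features nor that of samples changed, the cause was not tested.

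Same-numbered libraries did not deviate together (correlations of -0.297 to 0.118 in RNA-seq and -0.142 to 0.118 in ATAC-seq), so the numbers were not taken as pairs. With a replicate block 1, 8 and 0 members were called, and the log2 fold changes in Carm1 mutant tumors turned to -0.67 for Pcsk1, -1.06 for Vgf and -3.42 for Resp18. With each library left out these ranged from -5.80 to 1.95 for Pcsk1, -4.18 to 1.48 for Vgf and -11.06 to 1.65 for Resp18, the lowest each time without Carm1 mutant replicate 3. The difference between Carm1 mutant and R388K mutant tumors ranged from -0.65 to 8.28 for Chga, -1.52 to 7.11 for Chgb, -3.33 to 7.55 for Scg2, -5.54 to 7.499 for Scg3, -4.01 to 8.32 for Pcsk2, -0.57 to 5.38 for Vgf and -2.83 to 12.16 for Resp18, below 0 only without that library, and from -0.14 to 0.84 for Cpe. The fitted values of genes without reads depend on the prior count. The Pcsk1 peak ranged from -1.92 to 0.54 in Carm1 mutant tumors, above 0 without TKO replicate 3. The Vgf peak nearest to the start turned to 0.15 and 0.22 with library totals, and to 0.12 in R388K mutant tumors with scaling by uniformly expressed genes.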
